A study of Mus musculus with 36 samples.

Results

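Germ cells of XY gonads at the stage labelled TS24 were compared with XY germ cells at TS13. The comparison rests on 6 of the 36 arrays of the series, chosen by their sample titles: 3 arrays at TS24 and 3 arrays at TS13, with every named gene measured on each. The XY germ cells of both stages, and the XX germ cells set beside them, were sorted from pooled fetal gonads by an Oct4 reporter in progeny of C57BL/6NJ mice on a mixed background, with no treatment. The labels place TS13 ahead of the onset of sexual differentiation, TS24 within it and TS34 after it, and the comparison asks what changes in XY germ cells over the first of these intervals. Supporting cells came from other mouse lines: Tg(Sox9-cre/ERT2) on C57BL/6 for XY cells at TS24 and TS34, and Sry-EGFP on CD-1 for the other groups. Their levels were read as a check of purity, and their arrays also entered the estimate of each gene's spread. Embryos were pooled by sex, and the labels do not say whether the 3 arrays of a group are separate pools. The p-values reflect the spread among arrays of the same group, pooled over the 12 groups of the fit. Those groups include supporting cells and XX germ cells, and that spread may be technical.

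Germ cells reach the fetal gonad as primordial germ cells that can still enter either sexual fate and that express pluripotency genes such as Pou5f1 and Nanog. In the ovary, retinoic acid and BMP signals turn on Stra8 and the cells enter meiosis. In the testis, Sertoli cells protect germ cells from retinoic acid, and the germ cells pass through Nodal signalling, switch on Nanos2, stop dividing and later build the piRNA pathway that silences transposons. Over the same period germ cells of both sexes lose most of their DNA methylation, and genes whose promoters had been held silent by methylation become active. Germ granules, meiotic chromosome proteins and piRNA factors are known products of this last class.

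All values are log2 expression per gene, so a difference of 1 is a 2-fold change. Each difference is TS24 minus TS13, from 3 arrays against 3, with its standard error (SE) taken from the pooled spread. Calls required a limma p under 0.05 (two-sided) after Benjamini-Hochberg adjustment over the 17615 genes tested. Arrays of XY germ cells correlated at r of 0.974 to 0.9828 within TS24 and 0.9721 to 0.983 within TS13, and at 0.9655 to 0.9837 between the stages. Array medians were 6.71 to 6.79 at TS24 and 6.52 to 6.84 at TS13. The sort marker Pou5f1, the gene behind the Oct4 reporter, read 11.30, 10.68 and 10.82 on the TS24 arrays and 11.32, 11.05 and 12.02 on the TS13 arrays. The 17 germ cell markers averaged 9.21 to 9.24 per array at TS24 and 8.95 to 9.37 at TS13, against 6.42 to 6.55 in XY supporting cells at TS24, so the labelled cell type was borne out on all 6 arrays. Across the series, 1 library went against its label. The library labelled germ XX TS24 replicate 3 read 5.07 for Pou5f1 and 5.04 for Ddx4, where the other XX TS24 germ arrays read 10.67 and 10.73 for Pou5f1. It was left out of the fit, which used the other 35 arrays to estimate each gene's spread.

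From TS13 to TS24 the XY germ cells changed in 263 of the 17615 genes (1.49%), with 147 higher (0.835%) and 116 lower (0.659%) at TS24. The genes with the largest rises were Mgst2, a glutathione S-transferase of membranes, the homeobox repressor Hesx1 and the RNA helicase Ddx43, at 7.42-fold for Mgst2 and 4.48-fold for Hesx1. The largest falls were in AU015836 (6.87-fold), the imprinted growth-restraining gene Phlda2 (5.48-fold) and a histone H2B gene, H2bc4. Among called genes, 138 differed by more than 1 on the log2 scale, the smallest called rise was 0.72 and the smallest called fall was -0.74. The median difference over all genes was 0.03. In 245 of the 263 called genes the 3 TS24 arrays did not overlap the 3 TS13 arrays. Without any call, TS24 lay wholly above TS13 in 9.01% of all genes and wholly below in 3.28%. Adding the library that lacked germ cell markers to the fit left 106 calls (60 higher and 46 lower, all among the 263). That library is in no XY group, so the XY differences stayed the same and only the pooled spread changed. A fit of only the 6 XY arrays made 324 calls. Leaving out TS24 replicate 2 left 148 calls and leaving out TS13 replicate 3 left 173, whereas leaving out TS13 replicate 2, whose array median was the lowest of the 6, gave 91 higher and 177 lower.

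**Figure D1:**
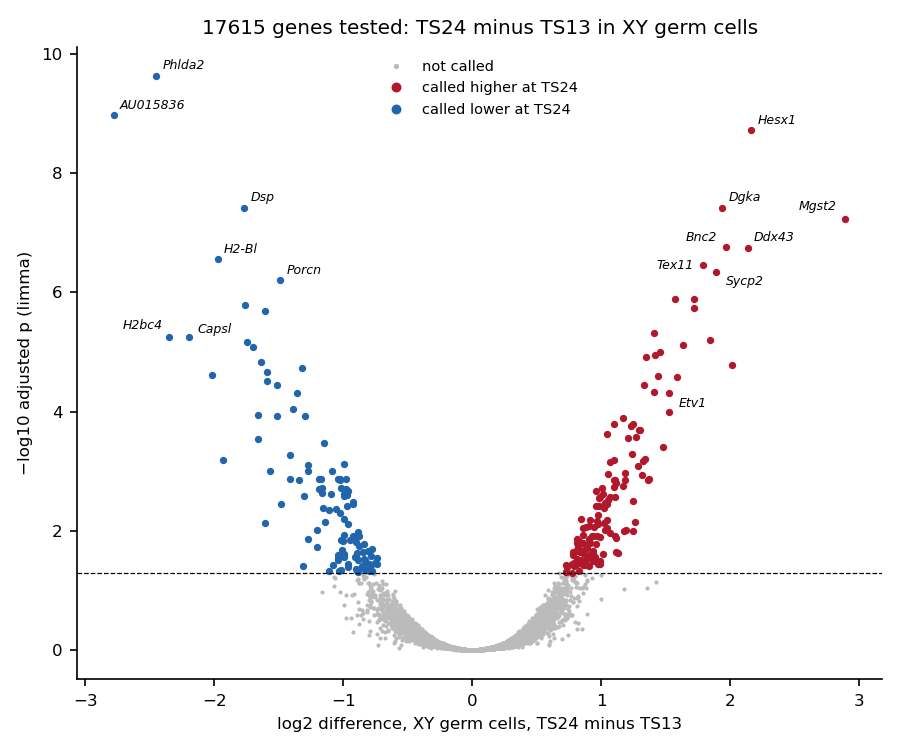
The 17615 genes tested, with the log2 difference (TS24 minus TS13, XY germ cells) on the horizontal axis and −log10 of the limma adjusted p on the vertical axis; the dashed line is an adjusted p of 0.05. Red points are the 147 genes called higher at TS24 and blue points the 116 called lower, with Mgst2 (2.89) at the right end and AU015836 (-2.78) at the left end.

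Mgst2 read 10.27, 10.20 and 10.35 on the TS24 arrays and 7.51, 6.80 and 7.84 on the TS13 arrays. All TS24 values stood clearly above every TS13 value, and the rise was 2.89 ± 0.33 (SE, adjusted p = 5.85e-08). At TS34 the mean was 10.44 ± 0.35 (SD, n = 3), so the level reached at TS24 was near that of the later stage. Hesx1, a homeobox repressor best known from the pituitary, read 7.36, 8.08 and 8.14 at TS24 and 6.12, 5.44 and 5.54 at TS13. Its groups did not overlap and it rose by 2.16 ± 0.22 (SE, adjusted p = 1.91e-09), with a TS34 mean of 9.35 ± 0.49 (SD, n = 3). Ddx43, a DEAD-box RNA helicase of germ cells, read 8.86, 9.57 and 9.34 at TS24 and 7.73, 6.99 and 6.66 at TS13. The lowest TS24 array was above the highest TS13 array, and the rise was 2.13 ± 0.26 (SE, adjusted p = 1.78e-07). Its TS34 mean was 9.23 ± 0.42 (SD, n = 3).

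Phlda2, an imprinted gene expressed from the maternal copy that restrains growth of the placenta, read 6.65, 7.11 and 6.67 at TS24 and 9.41, 9.10 and 9.29 at TS13. The groups were far apart, and Phlda2 had the smallest adjusted p of all genes named here (it fell by 2.45 ± 0.23, SE, on the log2 scale, adjusted p = 2.34e-10). At TS34 it averaged 5.95 ± 0.21 (SD, n = 3). AU015836, an X-linked gene to which no role is assigned here, read 6.72, 7.26 and 7.62 at TS24 and 10.07, 9.53 and 10.33 at TS13. It fell by 2.78 ± 0.27 (SE, adjusted p = 1.07e-09). AU015836 was also high in XY supporting cells at TS24, at 11.10 ± 0.27 (SD, n = 3).

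**Figure D2:**
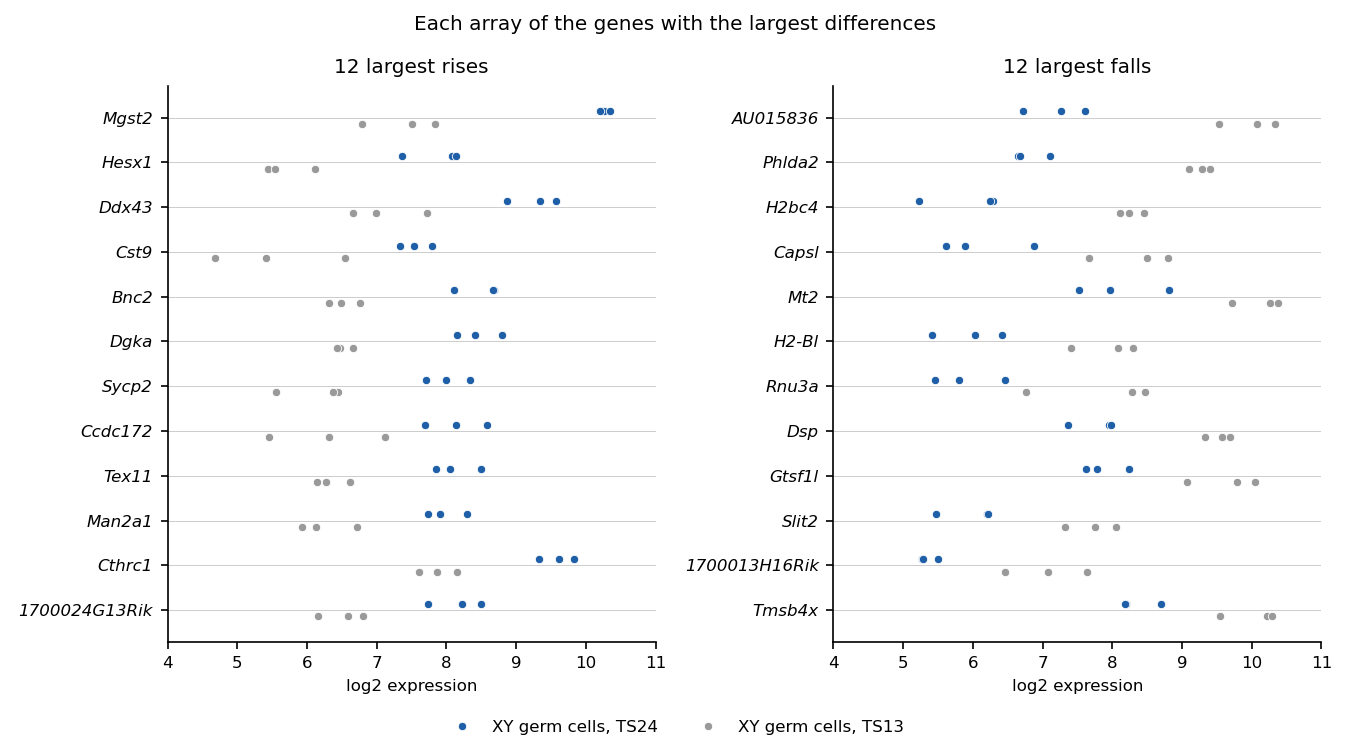
Log2 expression (horizontal axis) on each XY germ cell array for the 12 largest rises (left) and the 12 largest falls (right) among called genes without overlap; blue points are TS24 arrays and grey points TS13 arrays. Mgst2 sits between 10.20 and 10.35 at TS24 and between 6.80 and 7.84 at TS13, and Phlda2 between 6.65 and 7.11 at TS24 and between 9.10 and 9.41 at TS13.

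The next largest rises came from several kinds of gene. Cst9, a cystatin that is abundant in Sertoli cells, read 7.34, 7.54 and 7.79 at TS24 and 5.41, 4.68 and 6.55 at TS13. Bnc2, a zinc finger protein, read 8.69, 8.11 and 8.67 at TS24 and 6.76, 6.50 and 6.32 at TS13, and the diacylglycerol kinase Dgka read 8.42, 8.15 and 8.80 at TS24 and 6.66, 6.48 and 6.43 at TS13. The 12 largest rises and the 12 largest falls were taken only from called genes without overlap of the stages. Their lack of overlap is therefore not a separate result. Rises were 2.01 ± 0.30 for Cst9, 1.96 ± 0.24 for Bnc2 and 1.94 ± 0.22 for Dgka (SE). The other 6 of the 12 largest rises were Sycp2, Ccdc172, Tex11, the Golgi mannosidase Man2a1, the secreted protein Cthrc1 and 1700024G13Rik, at 1.63 to 1.89. Bnc2 and Dgka went on to TS34 means of 10.58 ± 0.23 and 9.88 ± 0.13 (SD, n = 3).

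Among the falls, H2bc4 read 6.29, 5.23 and 6.24 at TS24 and 8.46, 8.24 and 8.11 at TS13. Capsl read 5.88, 5.62 and 6.88 at TS24 and 8.81, 7.67 and 8.50 at TS13. Both were chosen for lack of overlap as well as size, with differences of -2.35 ± 0.34 for H2bc4 and -2.20 ± 0.31 for Capsl (SE, adjusted p = 5.64e-06 for each). Differences were -2.02 ± 0.31 for Mt2, a metal-binding metallothionein, -1.98 ± 0.24 for H2-Bl, a class I histocompatibility gene, and -1.93 ± 0.36 for the U3 small nucleolar RNA gene Rnu3a. H2bc4, H2-Bl and Rnu3a belong to families with near-identical copies, and the probes may read more than 1 member. Desmoplakin (Dsp), which anchors cell junctions, read 7.95, 7.37 and 7.98 at TS24 and 9.58, 9.69 and 9.34 at TS13, a narrow spread in both groups, and fell by 1.77 ± 0.20. The remaining 4 of the 12 largest falls were Gtsf1l, the secreted guidance ligand Slit2, 1700013H16Rik and the actin-binding peptide gene Tmsb4x, at -1.66 to -1.76. With all 36 arrays in the fit, Ccdc172, 1700013H16Rik and Tmsb4x were the only ones of these 24 genes that were not called.

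Germline genes known to be silenced by promoter methylation were the list with the most calls (37% of measured members, beside 1.49% of all genes). The list holds Ddx43, proposed as a marker with results of these data known, so its count is not independent evidence. Of its 27 measured members, 9 rose, 1 fell (Rpl10l, -1.14, a ribosomal protein gene of the testis whose call was lost without TS24 replicate 2 or TS13 replicate 1) and 17 did not pass the test, with a list median of 0.63 beside 0.03 for all genes. Besides Ddx43, the members with the largest rises were Sycp1, which zips homologous chromosomes together, Brdt, a bromodomain reader of acetylated histones, and Sycp3, a chromosome axis protein. Sycp1 read 7.88, 9.06 and 8.12 at TS24 and 6.88, 6.38 and 7.04 at TS13, with a rise of 1.59 ± 0.25 (SE, adjusted p = 2.62e-05). Brdt read 7.23, 8.04 and 7.42 at TS24 and 6.05, 6.30 and 6.32 at TS13. Neither gene overlapped between stages, and Brdt rose by 1.34 ± 0.20 (SE, adjusted p = 1.22e-05). Sycp3 read 9.73, 9.50 and 10.19 at TS24 and 8.98, 8.63 and 8.27 at TS13, already well above the array median before the onset, and rose by 1.18 ± 0.27. Its call was lost without TS24 replicate 3 or TS13 replicate 3. Ddx4 and Dazl, RNA-binding proteins that define the germline, had differences of 0.83 ± 0.27 and 0.73 ± 0.27 (SE) and were not called, although Ddx4 passed in the fit of only the 6 XY arrays. In the fit of all 36 arrays 3 members were called higher and 0 lower. Leaving out TS13 replicate 3 left 5 higher, and leaving out TS24 replicate 2, TS24 replicate 3 or TS13 replicate 2 left 6.

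Promoter windows of 250 bases upstream of the start were read from RefSeq (GRCm38.p6) for the 13814 tested genes that had one. The E-box CACGTG, which reads the same on both strands, was in 7.64% of these windows, in 13.2% of those of genes called higher (16 of 121) and in 4.44% of those of genes called lower (4 of 90). It was in 44.0% of the windows of the methylation-dependent list (11 of 25, since 25 of its 27 members had a window), among them 6 of the 9 members that rose: Mael, Sycp1, Sycp3, Brdt, Mov10l1 and Slc25a31. The last pair was named after its values were seen, and the call of Mov10l1 was lost without any single TS24 array or without TS13 replicate 2 or 3. The 6 list members also count among the 16 genes called higher that hold the E-box, so these shares are not separate results. The E2F-type word GGCGGGAA, searched on both strands, was in 2.92% of all windows and 16% of the windows of the list, but in 0 of its 9 members that rose. The median number of CpG dinucleotides per window was 13 over all genes, 18 for genes called higher and 11.5 for genes called lower. A match describes these letters only. Windows are shown for Mgst2 and Ddx43, large rises whose windows hold 0 CpG dinucleotides (Mgst2) and 20 (Ddx43), and for Sycp1, Brdt and Mael, which were chosen after their values were seen as risers with the E-box. Capitals mark the E-box, whose first base lies 94, 78 and 223 bases before the start in Sycp1, Brdt and Mael.
Mgst2 (chr3:51660929-51661178, forward strand): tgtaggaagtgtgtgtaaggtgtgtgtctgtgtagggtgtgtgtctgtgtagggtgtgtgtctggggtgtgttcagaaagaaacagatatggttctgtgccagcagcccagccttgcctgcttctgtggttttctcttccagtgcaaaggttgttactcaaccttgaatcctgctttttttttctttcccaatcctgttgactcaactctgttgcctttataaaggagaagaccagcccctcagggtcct
Ddx43 (chr9:78395527-78395776, forward strand): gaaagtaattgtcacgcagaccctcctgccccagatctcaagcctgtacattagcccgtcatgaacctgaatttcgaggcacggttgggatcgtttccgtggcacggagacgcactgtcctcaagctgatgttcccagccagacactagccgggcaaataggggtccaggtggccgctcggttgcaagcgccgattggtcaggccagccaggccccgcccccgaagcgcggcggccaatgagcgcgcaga
Sycp1 (chr3:102936101-102936350, reverse strand): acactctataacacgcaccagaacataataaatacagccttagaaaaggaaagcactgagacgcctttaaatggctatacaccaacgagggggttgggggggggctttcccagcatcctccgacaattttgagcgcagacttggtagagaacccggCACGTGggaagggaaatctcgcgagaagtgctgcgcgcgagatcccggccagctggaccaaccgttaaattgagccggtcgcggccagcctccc
Brdt (chr5:107330944-107331193, forward strand): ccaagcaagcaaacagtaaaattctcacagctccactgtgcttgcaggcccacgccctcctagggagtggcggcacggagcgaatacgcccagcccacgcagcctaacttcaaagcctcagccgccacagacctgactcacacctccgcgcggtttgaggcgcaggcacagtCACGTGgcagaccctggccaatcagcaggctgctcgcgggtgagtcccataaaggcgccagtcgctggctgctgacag
Mael (chr1:166238745-166238994, reverse strand): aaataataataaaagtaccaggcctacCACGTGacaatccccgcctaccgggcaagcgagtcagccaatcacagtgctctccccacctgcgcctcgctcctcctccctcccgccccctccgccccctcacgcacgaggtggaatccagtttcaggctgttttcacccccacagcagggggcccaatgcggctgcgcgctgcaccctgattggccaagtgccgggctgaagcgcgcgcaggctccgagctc
The Mgst2 window holds 0 CpG dinucleotides, and the other 4 hold 16 to 20.

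Of 27 measured meiosis genes, 6 rose and 1 fell (25.9% called, beside 1.49% of all genes), with a list median of 0.44. The risers Sycp1 and Sycp3 are also counted in the methylation-dependent list. Sycp2, a partner of Sycp3 in the chromosome axis, read 7.71, 8.34 and 7.99 at TS24 and 6.44, 5.56 and 6.37 at TS13. Its rise was 1.89 ± 0.24 (SE, adjusted p = 4.57e-07). Tex11, an X-linked crossover factor, read 7.85, 8.50 and 8.05 at TS24 and 6.62, 6.15 and 6.27 at TS13. It rose by 1.78 ± 0.22 (SE, adjusted p = 3.51e-07). The recombinase Dmc1 read 8.03, 9.81 and 9.04 at TS24 and 8.42, 7.50 and 7.24 at TS13. Its groups overlapped, and its rise of 1.24 ± 0.29 was not called without TS24 replicate 2 or 3, or without TS13 replicate 2 or 3. Spo11, which makes the meiotic DNA breaks, rose by 1.18 ± 0.23 to 6.23, 6.73 and 7.24 at TS24, against 6.04, 5.30 and 5.31 at TS13, close to the TS24 array medians of 6.71 to 6.79. Its call was lost without TS24 replicate 3 and with all 36 arrays. The member that fell was M1ap (-0.85), and its call was lost without TS24 replicate 2 or 3, or without TS13 replicate 1 or 3.

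Stra8, the entry gene of meiosis, was not called, and neither were Meioc and Rec8. Stra8 read 5.69, 5.86 and 5.60 at TS24 and 5.18, 5.33 and 5.69 at TS13, below the array medians, with a difference of 0.32 ± 0.22 (SE, adjusted p = 0.712). Meioc, needed to sustain meiotic prophase, had 0.64 ± 0.29 (SE, adjusted p = 0.428), above the list median of 0.44. The meiotic cohesin Rec8 had -0.17 ± 0.23 (SE, adjusted p = 0.907). Tex12, a central element protein, spread widely at TS24 (4.92, 8.11 and 7.37) and at TS13 (5.05, 4.65 and 6.43), so that its difference of 1.43 ± 0.42 was not called (adjusted p = 0.072). Tex12 did pass with only the 6 XY arrays, with the replicate block, and without TS24 replicate 1 or TS13 replicate 3. With all 36 arrays in the fit 3 of the 27 meiosis genes were called higher and 0 lower, and without TS24 replicate 3 the count was also 3 higher and 0 lower.

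Of 22 measured genes of the piRNA pathway and germ granules, 6 rose, 0 fell and 16 did not pass the test, with a list median of 0.46. The share called was 27.3%, beside 1.49% of all genes. The risers Mael, Tdrkh and Mov10l1 are also counted in the methylation-dependent list, so the lists are not separate results. Leaving out TS24 replicate 2, TS13 replicate 2 or TS13 replicate 3 left 3 higher. Tdrd5, a tudor protein of germ granules, read 9.99, 10.50 and 10.31 at TS24 and 9.11, 8.92 and 8.45 at TS13. The groups were apart by a wide gap, and Tdrd5 rose by 1.44 ± 0.22 (SE, adjusted p = 2.55e-05). Tdrd7, another tudor protein, rose by 1.20 ± 0.21 (SE), to 7.94, 8.09 and 7.62 at TS24, against 6.40, 6.65 and 6.98 at TS13. Mael, which acts with PIWI proteins in transposon silencing, rose by 1.02 ± 0.22 (SE) and lost its call without TS13 replicate 3, and Tdrkh, which tethers PIWI proteins to mitochondria, rose by 0.93 ± 0.24 (SE) and lost it without TS24 replicate 2 or 3, or without TS13 replicate 2 or 3. Piwil2, the PIWI protein present in fetal germ cells, read 8.24, 9.06 and 8.43 at TS24 and 7.81, 7.70 and 7.56 at TS13. Its arrays did not overlap, yet the difference of 0.88 ± 0.27 was not called (adjusted p = 0.0891), except with only the 6 XY arrays. Piwil4, which enters the nucleus of later male germ cells, had 0.31 ± 0.20 (SE, adjusted p = 0.676). In the fit of all 36 arrays 1 member was called higher.

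**Figure D3:**
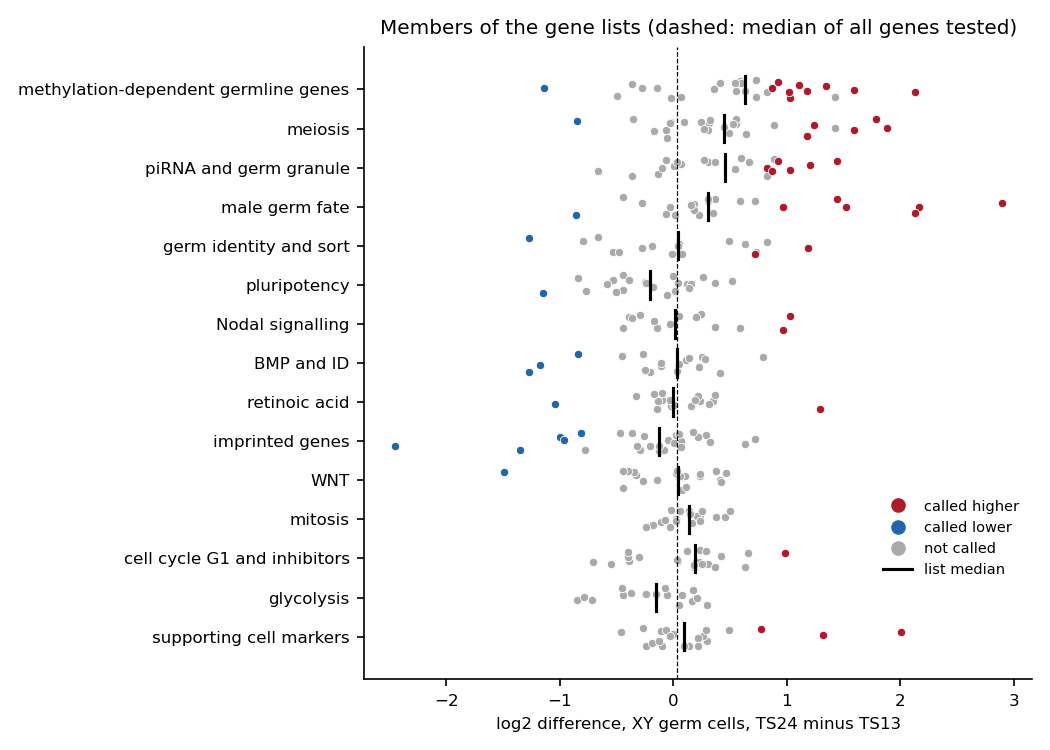
Log2 difference (TS24 minus TS13, XY germ cells, horizontal axis) of the measured members of 15 gene lists, 1 row per list; red points are genes called higher, blue points genes called lower and grey points genes not called. Black bars are list medians, and the bar of the methylation-dependent germline genes (0.63) lies farthest to the right of the dashed line, the median of all genes (0.03).

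Of 22 measured genes tied to the male germ cell fate, 6 rose and 1 fell (31.8% called, beside 1.49% of all genes), with a median of 0.31. This list holds Mgst2, Hesx1 and Ddx43, which were proposed as markers of the comparison with results of these data known, so its count is not independent evidence. Several risers recur in other lists: Ddx43 (methylation-dependent), Tdrd5 (piRNA), Lefty2 (Nodal), Etv1 (FGF and ETS) and Mgst2 (glutathione). Etv1, an ETS transcription factor, read 10.84, 11.02 and 10.75 at TS24 and 9.28, 8.70 and 10.06 at TS13. It rose without overlap by 1.52 ± 0.25 (SE, adjusted p = 4.84e-05), and at TS34 its mean was again 9.34 ± 0.29 (SD, n = 3), so TS24 was its highest XY stage. Its relatives Etv4 and Etv5 had differences of 0.39 and -0.03 and were not called. Nanos2, the RNA-binding repressor that secures the male fate, read 5.90, 7.12 and 6.26 at TS24 and 6.20, 5.57 and 6.41 at TS13. The groups overlapped and the difference was 0.37 ± 0.23 (SE, adjusted p = 0.655), while the TS34 arrays averaged 9.86 ± 0.30 (SD, n = 3). Morc1, a chromatin factor needed for transposon silencing, was the member that fell (-0.85), to 7.08, 6.60 and 8.03 at TS24, against 8.42, 7.99 and 7.87 at TS13. Its groups overlapped, and its call was lost without TS24 replicate 1 or 2 or TS13 replicate 1 or 2.

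Nodal signalling had 2 of 14 measured members higher and 0 lower (14.3% called, beside 1.49% of all genes), with a median of 0.01. Otx2, a homeobox gene of Nodal-responsive cells, read 5.81, 6.93 and 6.80 at TS24 and 5.91, 4.90 and 5.65 at TS13, and Lefty2, a secreted Nodal antagonist that is also a Nodal target, read 6.17, 6.32 and 7.34 at TS24 and 5.72, 5.62 and 5.58 at TS13. Otx2 overlapped between stages and Lefty2 did not, and the rises were 1.03 ± 0.24 and 0.97 ± 0.23 (SE). The call of Otx2 was lost without TS24 replicate 2 or 3 or TS13 replicate 2. That of Lefty2 was lost without TS24 replicate 3 or TS13 replicate 3. Both genes are dim: a filter at the 50th percentile of the arrays removed them. It left 11 members of the list, with 0 called and a median of -0.14. The ligand gene Nodal itself had -0.14 ± 0.20 (SE, adjusted p = 0.909), Lefty1 0.59 ± 0.24 (adjusted p = 0.301), and the co-receptor Tdgf1 -0.44 ± 0.26 (adjusted p = 0.612).

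The pluripotency list had 0 genes higher and 1 of 22 lower (4.55% called, beside 1.49% of all genes), with a median of -0.21. Tfcp2l1, a transcription factor of naive pluripotent cells, read 7.17, 6.71 and 6.70 at TS24 and 7.90, 7.98 and 8.16 at TS13. The groups were apart and it fell by 1.15 ± 0.21 (SE, adjusted p = 0.000339). Nanog read 9.33, 9.01 and 9.32 at TS24 and 10.01, 9.73 and 10.45 at TS13, every TS24 array below every TS13 array. Its difference of -0.84 ± 0.24 missed the threshold (adjusted p = 0.0641), but passed after quantile normalization, after median centring, with only the 6 XY arrays and without TS13 replicate 2. The threshold was also missed by -0.53 ± 0.25 for Pou5f1 (adjusted p = 0.462) and by -0.44 ± 0.22 for Sox2 (adjusted p = 0.474). Of 17 genes of germ cell identity, 2 rose and 1 fell (17.6% called). Alpl, the alkaline phosphatase long used to stain primordial germ cells, read 7.88, 8.92 and 7.76 at TS24 and 9.69, 9.51 and 9.17 at TS13, and fell by 1.27 ± 0.24. The laminin receptor subunit Itga6 rose by 1.19 ± 0.23, with 8.16, 7.93 and 8.03 at TS24 and 6.44, 6.71 and 7.42 at TS13, and E-cadherin (Cdh1) by 0.72 ± 0.19, a call lost on leaving out any of the 6 arrays. Alpl, Itga6 and Cdh1 were not called in the fit of all 36 arrays.

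Some known targets of BMP signalling fell. Of 19 measured genes of the BMP and ID list, 3 were lower and 0 higher (15.8% called, beside 1.49% of all genes). The median of 0.03 equalled that of all genes. Id3, an inhibitor of basic helix-loop-helix factors, read 7.35, 8.45 and 7.84 at TS24 and 9.35, 8.46 and 9.34 at TS13, and fell by 1.17 ± 0.24 (SE, adjusted p = 0.00192). Its relative Id2 fell by 1.27 ± 0.31, with 6.79, 5.99 and 6.37 at TS24 and 7.71, 7.0 and 8.26 at TS13, and the homeobox gene Msx2 fell by 0.84 ± 0.22, with 5.90, 6.35 and 6.18 at TS24 and 7.33, 6.31 and 7.30 at TS13. The Msx2 arrays overlapped, whereas those of Id2 and Id3 did not. Id1 was not called (-0.45 ± 0.23, adjusted p = 0.528). The call of Id3 was lost without TS24 replicate 1, that of Id2 without TS24 replicate 2 or 3 or TS13 replicate 1 or 3, and that of Msx2 without TS24 replicate 1 or 3 or TS13 replicate 1 or 3.

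Single members moved in the other signalling lists. Shares called were 11.1% for retinoic acid, 5% for WNT and 5.26% for FGF and ETS, beside 1.49% of all genes. They were 11.1% for glutathione and cystine and 12% for migration and niche receptors. Of 18 retinoic acid genes, Aldh1a1, which makes retinoic acid, rose by 1.30 ± 0.23 and Crabp1, which binds it inside cells, fell by 1.04 ± 0.27, to 9.74, 10.40 and 10.26 at TS24, against 11.65, 10.37 and 11.51 at TS13. Crabp1 overlapped between stages and lost its call without TS24 replicate 1 or 3 or TS13 replicate 1 or 3. Of 20 WNT genes 1 fell and 0 rose: Porcn, the acyltransferase that WNT proteins need for secretion, read 7.53, 7.51 and 7.80 at TS24 and 9.33, 8.90 and 9.07 at TS13. Porcn showed a tight, separate group at each stage and a fall of 1.49 ± 0.19 (SE, adjusted p = 6.15e-07). Of 19 FGF and ETS genes only Etv1 was called. Of 18 genes of glutathione and cystine handling, Mgst2 rose and Gsta4, a glutathione transferase of lipid aldehydes, fell by 0.90 ± 0.25. The Gsta4 call was lost without TS24 replicate 1 or 3 or TS13 replicate 1 or 3. Mgst2 was a given marker, so its call here is not independent evidence. Of 25 genes of migration and niche receptors, 3 rose: Itga6, Cdh1 and the insulin-like growth factor receptor Igf1r (0.82 ± 0.20), the last not called without TS24 replicate 2 or TS13 replicate 1 or 2. The stem cell factor receptor Kit had 0.05 ± 0.22 (SE, adjusted p = 0.975).

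Imprinted genes were the list with the most falls, 5 of 27 measured members (18.5%, beside 0.659% of all genes), with 0 rises and a median of -0.12. The list holds Phlda2, proposed as a marker with results of these data known, so its count is not independent evidence. Beside Phlda2 the falls were Peg10, a retrotransposon-derived gene, at -1.35 ± 0.27 and the growth inhibitor Grb10 at -0.99 ± 0.26 (SE). Impact was at -0.96 ± 0.22 and the zinc finger gene Peg3 at -0.81 ± 0.20 (SE). Peg10 read 7.82, 7.12 and 7.33 at TS24 and 8.78, 8.49 and 9.04 at TS13, without overlap. Peg3 read 10.54, 11.05 and 10.86 at TS24 and 11.61, 11.11 and 12.16 at TS13, and its groups were just apart. The falls include genes expressed from the maternal copy (Phlda2) and from the paternal copy (Peg10, Peg3, Impact). With all 36 arrays in the fit 1 of the 27 was called lower, 2 were on leaving out TS24 replicate 1, and 3 were on leaving out TS24 replicate 3 or TS13 replicate 3. The call of Grb10 was lost without any single TS24 array or without TS13 replicate 3, that of Impact without TS24 replicate 1 or TS13 replicate 1, and that of Peg3 without TS24 replicate 1 or 3 or TS13 replicate 1 or 3. Mest, another paternally expressed gene, had 0.72 ± 0.27 and was not called (adjusted p = 0.259).

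Of 16 genes that write or erase DNA methylation, 1 rose and 1 fell (12.5% called, beside 1.49% of all genes). Uhrf1, which guides the maintenance methyltransferase to replicated DNA, read 9.47, 9.77 and 9.06 at TS24 and 8.50, 8.09 and 8.93 at TS13, and rose by 0.93 ± 0.22. Its call was lost without TS24 replicate 1 or 2 or TS13 replicate 2. Gadd45a, a stress-induced gene also linked to demethylation, read 7.24, 7.82 and 7.99 at TS24 and 10.08, 8.95 and 8.95 at TS13, and fell without overlap by 1.64 ± 0.25 (SE, adjusted p = 1.47e-05). The methyltransferases Dnmt1 (-0.16 ± 0.22) and Dnmt3a (-0.12 ± 0.19) and the eraser Tet1 (0.14 ± 0.25) were not called. The 18 repressors of germline genes held 0 calls and a median of 0.15.

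Few cell cycle genes were called, and such small counts cannot show how much the lists moved. The G1 list had a median of 0.19, beside 0.03 for all genes. Positive differences were found in 18 of 24 G1 genes and 13 of 19 mitosis genes, beside 55.5% of all genes. Shares called were 4.17% in the G1 list, 6.25% in apoptosis and 7.14% in dissociation stress, beside 1.49% of all genes. Of 24 genes of the G1 phase and its inhibitors only Rb1, the retinoblastoma brake on S phase, rose, by 0.98 ± 0.21 (SE, adjusted p = 0.00279), with 9.83, 9.55 and 9.93 at TS24 and 8.85, 8.78 and 8.74 at TS13. These narrow groups did not overlap. The inhibitor gene Cdkn1b spread from 7.42 to 9.42 at TS24 and from 7.78 to 8.83 at TS13, and its difference of 0.31 ± 0.33 was not called (adjusted p = 0.864). The 19 mitosis genes held 0 calls, with a median of 0.14, and Mki67 had -0.03 ± 0.23 (SE, adjusted p = 0.989). Of 16 apoptosis genes, Pmaip1, a BH3-only death gene, rose by 0.93 ± 0.23, and its call was lost without TS24 replicate 1 or 3 or TS13 replicate 1 or 2. Glycolysis (17 genes), the respiratory chain (20), cholesterol synthesis (17) and the Y-linked genes (7) held 0 calls each, with medians of -0.15, 0.05, 0.03 and 0.18. Among 14 genes of the dissociation stress list only Ier3, an immediate early gene, was called (-1.10 ± 0.23).

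Markers of other cells of the gonad were read on the same arrays. The 21 supporting cell markers averaged 7.19 to 7.32 per array at TS24 and 6.84 to 7.23 at TS13 in XY germ cells, against 9.61 to 9.79 and 9.31 to 9.41 in XY supporting cells of those stages. Of them 3 were called higher and 0 lower (14.3% called, beside 1.49% of all genes). These were Cst9, Gatm (1.32 ± 0.25), which makes a creatine precursor, and Dmrt1 (0.77 ± 0.21), which germ cells also use. The Dmrt1 call was lost without any single TS24 array or without TS13 replicate 1 or 2. Cst9 and Gatm averaged 12.20 ± 0.24 and 11.91 ± 0.29 (SD, n = 3) in XY supporting cells at TS24, and Aldh1a1 11.24 ± 0.30. The list median was 0.10, beside 0.03 for all genes, and 11 of the 21 differences were positive. Among the 18 markers not called, differences were -0.01 ± 0.22 for Wt1, 0.14 ± 0.21 for Sox9 and -0.11 ± 0.21 for Amh (SE). XY supporting cells at TS24 read 10.00 ± 0.28 for Amh (SD, n = 3). Over all called genes, supporting XY TS24 cells stood more than 1 log2 unit above germ XY TS24 cells in 15.6% of the rises (23 of 147) and 31.9% of the falls (37 of 116), beside 7.82% of all genes tested. The germ TS24 values also decided the calls, which by itself lowers this share among rises and raises it among falls. The share among falls is therefore not a result about supporting cell genes. Among rises the share stood above that of all genes, against the direction of this selection, and what produced it was not tested. The part of supporting cells in the rises of Cst9, Gatm and Aldh1a1 was not tested. In such bulk samples, fewer cells of a type and less RNA per cell cannot be told apart.

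In the marker lists of other cells, 8.33% of the stromal and 14.3% of the mesonephric genes were called, beside 1.49% of all genes. The 5 steroidogenic, 12 endothelial, 9 macrophage and 7 erythroid markers held 0 calls. The stromal markers held 1, Ptch1 (1.04 ± 0.22), the hedgehog receptor that is also a hedgehog target, whose call was lost without TS24 replicate 2. Ptch1 read 9.82, 10.07 and 9.72 at TS24 and 8.87, 8.75 and 8.87 at TS13, a clear separation. Among mesonephric markers only the LIM homeobox gene Lhx1 was called (1.41 ± 0.23, adjusted p = 4.76e-05), with 8.62, 8.48 and 8.68 at TS24 and 7.27, 6.75 and 7.53 at TS13. Per-array means of the mesonephric list were 6.78 to 6.93 at TS24 and 6.44 to 6.81 at TS13, and those of the stromal list 7.06 to 7.12 at TS24 and 6.91 to 7.16 at TS13. Their part in the results was not tested.

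X-linked genes made up 12.1% of the falls (14 of 116) and 5.44% of the rises (8 of 147), beside 3.47% of all genes tested (611). The median difference of X-linked genes was -0.01, beside 0.035 elsewhere. In XX germ cells over the same stages, 13 of 172 rises (7.56%) and 0 of 41 falls were X-linked. After quantile normalization 3 of 103 XX falls were X-linked, and after median centring 3 of 128.

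The same step in XX germ cells shares no array with the XY step. It rests on 2 XX TS24 and 3 XX TS13 arrays and gave 213 called genes (1.21%), 172 higher (0.976%) and 41 lower (0.233%). Other scalings gave more falls: quantile normalization made 192 calls higher and 103 lower, and median centring made 179 higher and 128 lower. Among rises, 37 genes were shared, 25.2% of the 147 XY rises and 21.5% of the 172 XX rises. Among falls, 12 were shared, 10.3% of the 116 XY falls and 29.3% of the 41 XX falls, and 0 genes were called in opposite directions. After quantile normalization 20 falls were shared (11.6% of XY and 19.4% of XX falls), and after median centring 23 were (12.1% and 18%). Leaving out XX TS24 replicate 2 left 50 XX calls and leaving out XX TS13 replicate 3 left 126. The shared genes include Sycp1, Sycp2, Brdt, Dmc1, Mael, Ddx43, Tex11 and Rb1 among the rises and H2bc4, Capsl, Gtsf1l and Morc1 among the falls. Sycp1 had 1.59 ± 0.25 in XY and 2.01 ± 0.28 in XX germ cells (SE), and Capsl had -2.20 ± 0.31 in XY and -2.11 ± 0.35 in XX. The methylation-dependent germline genes counted 9 higher and 1 lower in XY and 8 higher and 0 lower in XX, with medians of 0.63 and 0.66.

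Whether a gene's step differed between the sexes was tested directly, as the XY step minus the XX step. This difference was called in 27 genes (0.153%), 9 more positive in XY (0.0511%) and 18 more negative (0.102%). Of the 27, 18 were called in the XY step, 8 in the XX step and 1 in neither. The largest positive differences were in Mgst2 (3.16 ± 0.50, SE, adjusted p = 0.000251), Etv1 (2.42 ± 0.37, adjusted p = 0.000171), Cst9 (2.32 ± 0.46, adjusted p = 0.00643) and Tdgf1 (2.0 ± 0.39, adjusted p = 0.00519). Mgst2 had 10.27, 10.20 and 10.35 on XY TS24 arrays and 6.53 and 6.91 on XX TS24 arrays, which were within the TS13 range of XX germ cells (6.22, 7.48 and 7.25). Tdgf1, the Nodal co-receptor, reached the list by its XX values: it read 10.59, 10.68 and 10.99 on XY TS24 arrays, and 8.31 and 7.42 on XX TS24 arrays, against 10.73, 10.42 and 9.76 on XX TS13 arrays.

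The most negative differences were in AU015836 (-3.69 ± 0.41, adjusted p = 1.15e-07), 1700013H16Rik (-2.28 ± 0.37, adjusted p = 0.000324), Phlda2 (-2.24 ± 0.34, adjusted p = 0.000171) and Stra8 (-1.99 ± 0.33, adjusted p = 0.000324). Phlda2 stayed at 9.87 and 9.75 on XX TS24 arrays, far above the XY TS24 arrays (6.65, 7.11 and 6.67) and near the XX TS13 arrays (10.49, 9.68 and 9.91). Stra8 read 8.06 and 6.88 on XX TS24 arrays, against 5.22, 4.92 and 5.35 on XX TS13 arrays, while its XY arrays of both stages stayed between 5.18 and 5.86. Midkine (Mdk), a secreted heparin-binding growth factor, fell by 1.32 ± 0.20 in XY, to 7.55, 7.65 and 7.75 at TS24, against 9.18, 8.51 and 9.24 at TS13. Its XX step was 0.64 ± 0.23 and its difference of steps -1.96 ± 0.30 (adjusted p = 0.000184). Of the 27 measured meiosis genes only Stra8 and M1ap had a called difference between the sexes, both more negative in XY. Of the 27 measured methylation-dependent genes 0 did. Over all genes the share was 0.153%, at which a list this short would seldom hold a call, so 0 does not show equal steps. The count of 27 called differences depends on single arrays. Leaving out XX TS24 replicate 2 kept 11 of the 27 genes among 19 calls. Leaving out XY TS13 replicate 2 gave 138 calls, XX TS24 replicate 1 78 and XY TS24 replicate 3 42. Mgst2, Hesx1, Etv1 and Mdk were called under every alternative run, whereas Cst9 and Tdgf1 were not called without XX TS24 replicate 2. With all 36 arrays, where the library without germ cell markers enters the XX TS24 mean, 14 differences were called and Phlda2, AU015836, 1700013H16Rik and Stra8 were not among them.

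**Figure D4:**
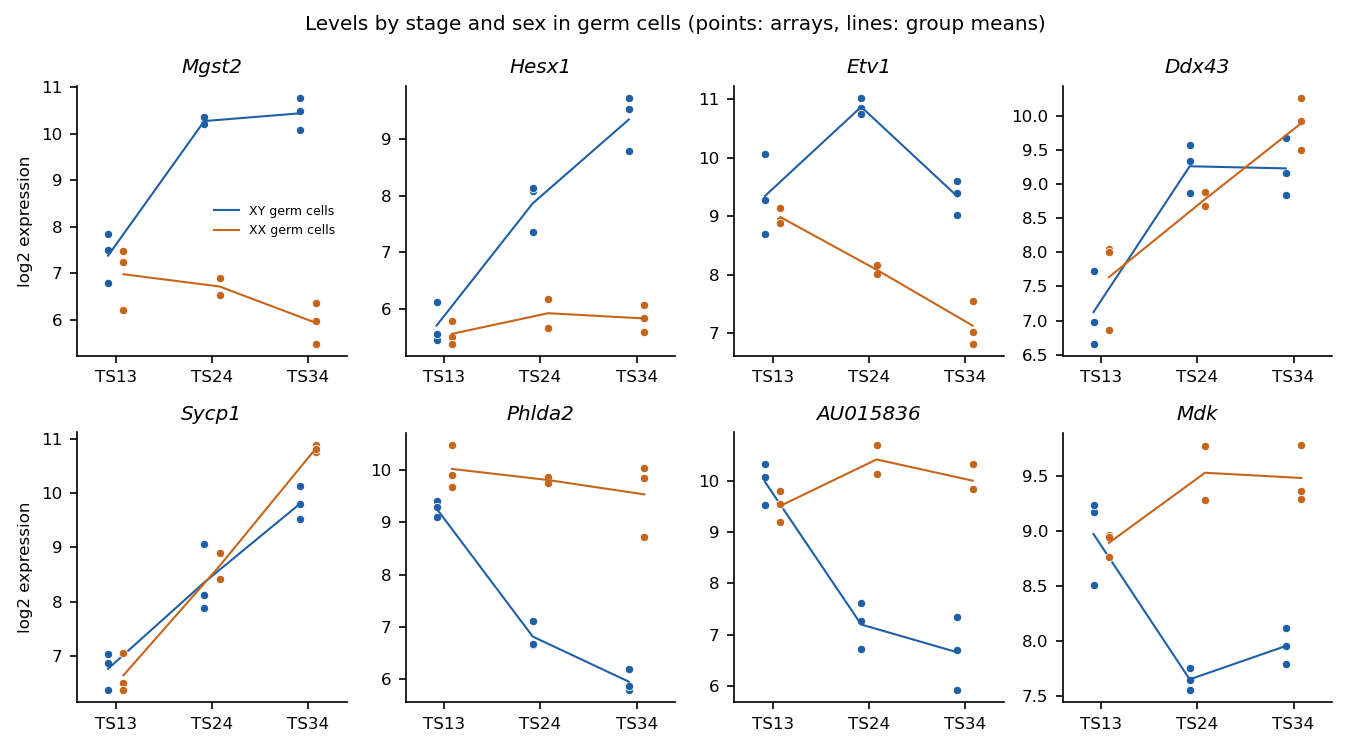
Log2 expression (vertical axis) at TS13, TS24 and TS34 for 8 genes; points are arrays and lines join group means, blue for XY and orange for XX germ cells, without the XX TS24 library that lacked germ cell markers. Mgst2, Hesx1 and Phlda2 part between the sexes at TS24, Etv1 is highest at TS24 in XY cells, and Ddx43 and Sycp1 rise in both sexes.

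**Figure D5:**
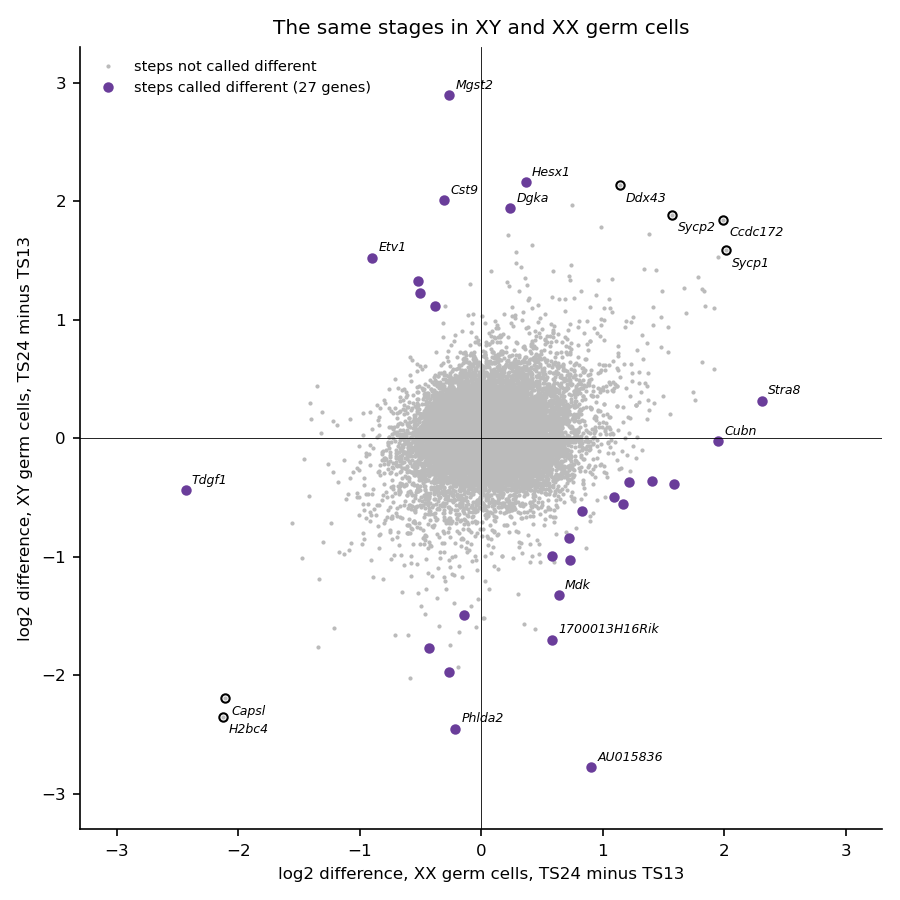
Log2 difference TS24 minus TS13 of each gene in XX germ cells (horizontal axis) and XY germ cells (vertical axis). Purple points are the 27 genes whose steps were called different, such as Mgst2 (2.89 in XY and -0.26 in XX), and open circles mark some of the genes that were called in the same direction in both, such as Sycp1 (1.59 and 2.01) and Capsl (-2.20 and -2.11).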

How the data were processed

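RNA of sorted fetal gonad cells was hybridised to Affymetrix Mouse Gene 1.0 ST arrays, per the labels' protocols. The authors deposited log2 values, 1 per probe set and array, made with RMA as the submitters' processing notes name it. Which RMA software was used is not given in the sources used here. Between arrays, the medians over the deposited probe sets differ. Whether the authors' RMA included quantile normalization, and over which arrays, was not determined, and the values were used without further scaling. Precision is set by the number of arrays in each group and by the pooled spread.

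Of 35557 probe sets, 21789 had 1 gene symbol in the platform annotation, 1621 had several and 12147 were not named. Symbols were updated by Entrez identifier for 21698 (RefSeq, GRCm38.p6). Each of 19938 genes was read by its probe set with the highest mean, and 17615 genes above the 25th percentile of their array on at least 3 arrays were tested (2323 were removed).

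Group means of 12 groups were estimated on 35 arrays, without covariates, by limma (version 3.58.1, R 4.3.3), leaving out the library labelled germ XX TS24 replicate 3. There were 3 comparisons: TS24 minus TS13 in XY germ cells, the same in XX germ cells, and the difference of these steps. Adjusted p-values are Benjamini-Hochberg over all genes, two-sided. The procedure was tested on simulated data.

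Genes named by rule were the 4 given markers, the 12 largest rises and 12 largest falls among called genes without overlap, up to 4 called members of each of 31 lists with up to 2 uncalled ones that the list turns on, and the 4 largest sex differences each way; other named genes were chosen after their values were seen. The genes, lists and tests were chosen with earlier results of these data known. Alternatives were other sets of arrays, scalings, filters and probe set rules, the replicate number as a block, and leaving out each array.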

Additional observations from a re-analysis of the deposited data

Results flagged for a closer look

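A difference between the XY step and the XX step (TS24 minus TS13, XY minus XX) passed limma's test in 27 genes, and each is given here with that difference on the log2 scale. The XX step rests on 2 TS24 and 3 TS13 arrays, and without XX TS24 replicate 2 only 11 of the 27 were called. With the replicate block Pdlim3 and 1110032A03Rik were not called. In 18 of the 27 the XY step itself was called. The XY step was called higher and exceeded the XX step in Mgst2 (3.16), Etv1 (2.42), Cst9 (2.32), Gatm (1.84), Hesx1 (1.80), Irgm1 (1.73), Dgka (1.70) and Pdlim3 (1.49). The XY step was called lower and lay below the XX step in AU015836 (-3.69), 1700013H16Rik (-2.28), Phlda2 (-2.24), Mdk (-1.96), Nr6a1 (-1.76), H2-Bl (-1.71), Gpd2 (-1.57), M1ap (-1.57), Porcn (-1.34) and Dsp (-1.34). 

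In Tdgf1 the difference (2.0) came with a called XX fall of 2.44 and an uncalled XY value of -0.44. In Stra8 (-1.99), Cubn (-1.98), B2m (-1.98), Dnah8 (-1.77), 1700007K13Rik (-1.73), 1110032A03Rik (-1.59), Smyd4 (-1.58) and Fbxo21 (-1.44) the XY step was not called and the XX step was positive, with the entry gene of meiosis Stra8 at 0.32 in XY and 2.31 in XX germ cells. B2m, the light chain of class I histocompatibility molecules, read 6.25, 6.41 and 6.65 on XY TS24 arrays and 7.57, 6.08 and 6.82 on XY TS13 arrays, and H2-Bl of the same complex fell in XY germ cells. Irgm1, an interferon-induced GTPase, read 8.18, 8.18 and 7.47 on XY TS24 arrays and 6.62, 6.75 and 6.79 on XY TS13 arrays, without overlap.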

How the results depend on the processing

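None of the 83 called XY genes named and none of the 27 differences between the steps reversed direction under the alternatives run; the XX steps of single genes were not run under them. The 263 XY calls became 106 with all 36 arrays, 335 after quantile normalization (163 higher and 172 lower), 356 after median centring (166 and 190), against 147 and 116, 324 with only the 6 XY arrays, and 148 to 268 on leaving out single arrays; the filters and the mean of probe sets gave 257 to 263. The 213 XX calls (172 higher and 41 lower) became 295 after quantile normalization (192 and 103), 307 after median centring (179 and 128), 352 with all 36 arrays, which put the library without germ cell markers into the XX TS24 mean, 31 with only the arrays compared, and 50 to 225 on leaving out single arrays. The 27 differences between the steps became 14 with all 36 arrays, 60 after quantile normalization, 62 after median centring, 79 with only the arrays compared, and 19 to 138 on leaving out single arrays. Of the 83 XY genes, 35 kept the call under every alternative and 42 lost it with all 36 arrays, and of the 27 differences 4 kept it under every alternative. The labels do not say what arrays with the same replicate number share. Same-numbered XY arrays deviated at correlations of -0.359, -0.21 and -0.118. Deviations from a group mean constrain each other, so these values are not independent. Whether the numbers mark a batch was not determined. No array correlated best with its own number. Same-numbered XX arrays were at -0.005 and -0.013, where the deviations of the 2 XX TS24 arrays mirror each other and are not independent. With the replicate block the calls were 259 in XY, 195 in XX and 30 for the difference, and 3 of the 83 XY calls (Gsta4, Dmrt1 and Tdrd1) and 2 of the 27 differences (Pdlim3 and 1110032A03Rik) were lost. Adding the library without germ cell markers left the XY differences unchanged (Mgst2 2.89 and Phlda2 -2.45 in both fits), because it belongs to no XY group. In XY only the pooled spread changed, and with it the p-values. Apart from this and the effect on the XX mean, the cause of these shifts was not tested. With 3 arrays a group, the smallest called rise was 0.72 and the smallest called fall -0.74, and the precision of the XX TS24 mean rests on 2 arrays.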

Other observations

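Genes of the cytoskeleton were called in both directions in XY germ cells. Those given here were picked after their values were seen, are not a full list and support no direction for the group. Vim, the intermediate filament of migrating and mesenchymal cells, read 8.76, 8.80 and 8.84 on the XY TS24 arrays and 9.66, 9.67 and 10.00 on the XY TS13 arrays. The stages did not overlap, with a difference of -0.97 ± 0.20 (SE, limma adjusted p = 0.00245). Fscn1, which bundles actin in protrusions, read 8.30, 8.43 and 8.38 at TS24 and 9.63, 9.02 and 9.53 at TS13, and fell by 1.02 ± 0.20. Differences were -1.04 ± 0.21 for Tes, a focal adhesion protein, -1.52 ± 0.26 for the actin-bundling Pls3 and -0.999 ± 0.21 for the actin-binding calponin Cnn3. Called rises were 1.11 ± 0.22 for Pdlim3, a scaffold at actin filaments, 0.86 ± 0.20 for Wasl, which starts actin branching, and 0.84 ± 0.21 for Fmnl2, an actin-elongating formin. Leaving out TS13 replicate 3 lost the call of Cnn3. Wasl lost its call without TS24 replicate 2 or TS13 replicate 3, Fmnl2 without any single TS24 array or without TS13 replicate 2 or 3, and neither Vim nor Fmnl2 was called with all 36 arrays.

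The heparin-binding growth factor Ptn, the relative of Mdk, read 6.91, 6.80 and 6.37 at TS24 and 8.32, 7.68 and 8.91 at TS13. Both members of this small family fell in XY germ cells, with differences of -1.61 ± 0.37 for Ptn and -1.32 ± 0.20 for Mdk, beside uncalled XX steps of 0.44 and 0.64. The difference of the steps was called for Mdk and not for Ptn (-2.05 ± 0.55, adjusted p = 0.109), and the XY call of Ptn was lost without TS24 replicate 3 or TS13 replicate 3 and with all 36 arrays.

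X-linked genes moved in both directions. Rhox6, a reproductive homeobox gene, read 11.56, 11.60 and 11.94 at TS24 and 13.15, 12.55 and 12.37 at TS13 and fell by 0.99 ± 0.25, a call lost without TS24 replicate 1 or 2 or TS13 replicate 1. Scml2, a germline Polycomb protein, read 9.84, 10.38 and 10.41 at TS24 and 8.83, 8.40 and 9.58 at TS13 and rose by 1.27 ± 0.23, with 1.67 in XX germ cells. Neither gene was called with all 36 arrays.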
